A study of Mus musculus with 458 samples.

Results

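The SLAM family is a group of related immune receptors of the cell surface, and 6 of its genes were followed here in single haematopoietic stem cells (HSCs) of mice. These were Slamf1, Cd48, Ly9, Cd244, Slamf6 and Slamf7, taken by name from the 22645 genes measured. All 6 were found in the expression table. Slamf1 and Cd48 hold a special place among them, because their proteins CD150 and CD48 formed the gate through which every cell had been sorted.

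Single Vwf+ HSCs had been transplanted into mice, so that the donor-derived HSCs of a recipient go back to 1 transplanted cell and each mouse stands for 1 clone. The strain on the labels was C57BL/6. Recipients were grouped by the blood lineages restored over 16 weeks. MUL mice had multilineage reconstitution (163 cells), PEM mice had PEM-restricted reconstitution, in which platelets, erythrocytes and myeloid cells are restored (118 cells), and PLT mice had platelet-restricted reconstitution (177 cells), with 2 mice in each group. The labels name no untransplanted control and no age. From each recipient's bone marrow, cells with the phenotype LSK CD150+CD48-CD45.2+ were index sorted as single cells. LSK stands for cells that lack lineage markers and carry Sca-1 and KIT, and CD45.2 marks the donor. No group of cells outside this gate was available for comparison, so the family is described here within CD150+CD48- cells alone.

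SLAM family receptors belong to the immunoglobulin superfamily and most bind a copy of themselves on a neighbouring cell, while CD48 is a ligand of CD244. Their tails recruit small adaptors of the SAP family, Src-type kinases and phosphatases, which tune the activity of lymphocytes and of other blood cells. In mouse bone marrow the family is best known for sorting: CD150 on the surface together with a lack of CD48 marks a fraction rich in HSCs, CD244 and CD48 appear on progenitors further along, and Ly9 (CD229) has been used to divide HSCs further.

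All 6 genes lie in 1 cluster of 394 kb on chromosome 1 (mm10, GENCODE M21). Cd244 (Cd244a in the annotation) spans 171559193 to 171609746 on the forward strand. Ly9 spans 171588624 to 171607410 on the reverse strand, Slamf7 171632403 to 171653035 on the reverse strand, and Cd48 171682009 to 171705258 on the forward strand. Slamf1 follows at 171767127 to 171801184 and Slamf6 at 171917515 to 171953170, both on the forward strand. The Cd244a gene model covers all of Ly9 on the opposite strand, over 18.8 kb, in this annotation, whereas in RefSeq the models end before they meet. The library kit does not mark strand, so reads of Ly9 and Cd244 in such an overlap cannot be told apart by strand. The span given includes introns, and the overlap of exons was not computed.

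The start regions of Slamf1 and Cd48 are printed because the gate asks for the protein of the first and the absence of the second. Each runs from 250 bases before to 50 after the RefSeq start (GRCm38.p6), at chr1:171766882-171767181 and chr1:171681742-171682041, both on the forward strand. Capitals mark short words that are known from binding sites of blood transcription factors, read on both strands. The word for the RUNX family was TGTGGT. For the ETS family the word searched was AGGAAG. For the GATA family the word AGATAA was searched, along with its variant that begins with another base, TGATAA.
Slamf1: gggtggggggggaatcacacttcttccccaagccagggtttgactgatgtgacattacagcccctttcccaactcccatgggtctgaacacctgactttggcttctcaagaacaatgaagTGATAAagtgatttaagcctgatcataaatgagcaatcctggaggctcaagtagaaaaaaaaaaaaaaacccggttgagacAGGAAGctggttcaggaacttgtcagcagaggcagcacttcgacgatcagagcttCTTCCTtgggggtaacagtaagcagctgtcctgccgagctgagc
Cd48: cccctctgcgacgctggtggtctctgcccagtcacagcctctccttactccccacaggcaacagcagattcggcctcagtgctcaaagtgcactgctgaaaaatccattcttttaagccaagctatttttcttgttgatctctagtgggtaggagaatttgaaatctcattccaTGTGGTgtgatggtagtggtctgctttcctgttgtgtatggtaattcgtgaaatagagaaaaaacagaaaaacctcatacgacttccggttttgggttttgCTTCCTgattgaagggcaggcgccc
The Slamf1 window holds 1 GATA word and 2 ETS words. The Cd48 window holds 1 RUNX word and 1 ETS word. None of the marked words overlap. Of 32851 promoter windows of this length, 18.6% hold a GATA word, 16.8% the RUNX word and 35.4% the ETS word, so these matches are a description of the sequence only.

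RNA levels are given in RPKM, the number of reads divided by gene length in kilobases and by the read total of that cell, and a cell is counted for a gene at 1 RPKM or more. Median depth was 4.28 to 5.32 M mapped reads per mouse, and the median number of detected genes for mouse 1 and mouse 2 was 2209.5 and 2553 in MUL, 3186 and 2752 in PEM, and 1869 and 2596 in PLT. Mouse 2 of PEM gave 25 cells, and its plates had median depths of 3.20 and 12.2 M reads. The names of both MUL mice share 1 prefix and each other mouse has its own. The labels do not say what the prefix stands for, and what it may mark cannot be told apart from the groups. At least 3 of 10 HSC markers were above 0, traces under 1 RPKM included, in all but 2 cells. At 1 RPKM or more the markers differed widely, from Meis1 in 77.7% of cells and Mllt3 in 60.9% to Procr in 24%, Tek in 10.5%, Hoxb5 in 10.3% and Fgd5 in 6.11%. Neutrophil marker RNA, summed over 10 genes, stood apart in PEM mouse 2 at 15142 RPKM against 57.6 to 2963 RPKM in the others. Gapdh, a gene of basic metabolism, was listed at 0 in 45 cells, so a value of 0 need not mean that a cell lacked the RNA.

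Set against the sort gate, the RNA of the gate's SLAM pair gave a one-sided picture. Cd48 RNA was nearly absent, reaching 1 RPKM in 4 of all cells sorted (0.873%, exact 95% interval 0.238 to 2.22%). Slamf1 RNA, in contrast, was found at that level in 88 cells (19.2%, 15.7 to 23.1%), although all had been sorted for the protein. All intervals of shares are Clopper-Pearson intervals, which hold no error beyond that of counting. Where no cell was found, the share that a count of 0 allows is given instead, taken as 3 counts over the number of cells. By pairs, 86 cells had Slamf1 without Cd48, 2 had Cd48 without Slamf1, 2 had both and 368 (80.3%) had neither. Counting every value above 0, 216 cells had Slamf1 alone, 4 Cd48 alone, 3 both and 235 neither.

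The other gate proteins were seen more often as RNA. Ly6a, which encodes Sca-1, reached 1 RPKM in 58.5% of cells (38.7 to 86.0% over the 6 mice). Kit, the receptor for stem cell factor, did so in 56.1% (34.4 to 75.3%), and Ptprc, which encodes CD45, in 41.3% (26.9 to 58.1%). Slamf1 ranged from 4.71 to 37.6% over the mice and was below each of these 3 genes in every mouse. Kit, Ly6a and Ptprc did not share the order of Slamf1 over the groups. Both PLT mice were lower than both MUL mice for Kit, Ly6a and Ptprc, as for 22.1% of all tested genes. Slamf1 was higher in both, as were 7.32% of these genes. For Ptprc the gap was small, with 35.7% in PLT mouse 2 and 35.9% in MUL mouse 1. By mean RPKM its PLT mice (77.3 and 46.9) and MUL mice (63.3 and 98.8) overlapped. None of Kit, Ly6a and Ptprc passed the test in any comparison.

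**Figure D1:**
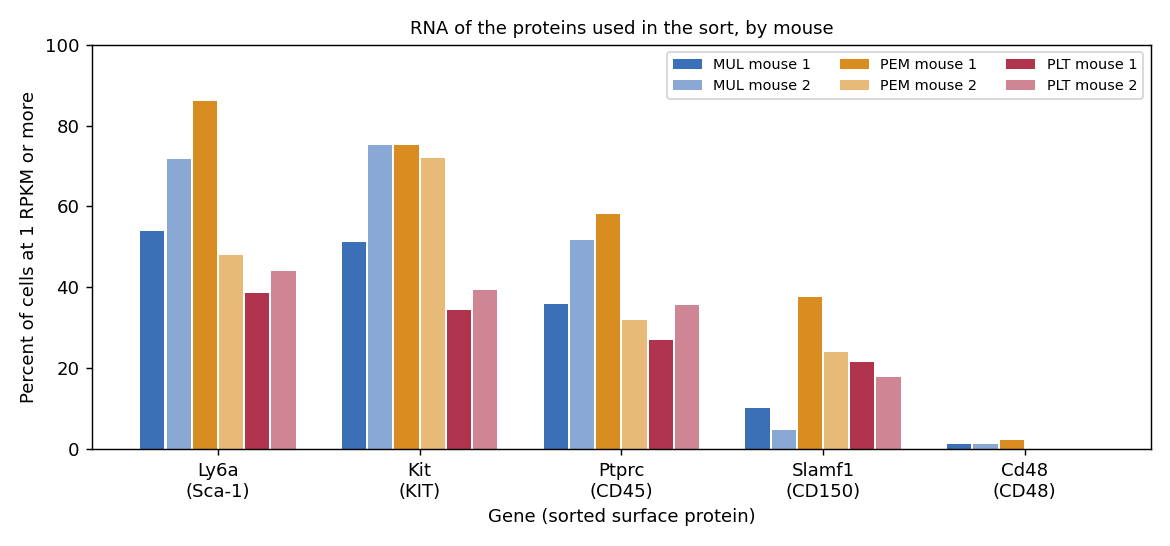
Percent of cells (y axis, from 0 to 100) with RNA of each gene of the sorted surface proteins at 1 RPKM or more, 1 bar per mouse, 2 mice in each group. Slamf1 stays below Ly6a, Kit and Ptprc in every mouse, and Cd48 has bars for 3 mice only.

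Slamf1 encodes CD150, the family's founding member and a receptor that binds itself. Its RNA was more frequent in the cells of PEM and PLT mice than in those of MUL mice. In the MUL mice 8 of 78 cells (10.3%, 4.53 to 19.2%) and 4 of 85 cells (4.71%, 1.30 to 11.6%) reached 1 RPKM. In the PEM mice 35 of 93 cells (37.6%, 27.8 to 48.3%) and 6 of 25 cells (24%, 9.36 to 45.1%) did so. The PLT mice lay between, with 20 of 93 cells (21.5%, 13.7 to 31.2%) and 15 of 84 cells (17.9%, 10.4 to 27.7%). No mouse of 1 group overlapped those of another. Over the mice of a group the mean share came to 7.48% ± 3.92 for MUL, 30.8% ± 9.64 for PEM and 19.7% ± 2.58 for PLT (SD, n = 2 each).

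These orders are to be read against how often any gene shows them. Of the 11337 genes tested, 7.32% had a share of cells higher in both PLT than in both MUL mice, and 36.7% were higher in both PEM than in both MUL mice. A share lower in both PLT than in both PEM mice was found for 34.2% of genes. A design of 2 mice against 2 cannot go below p = 0.33 in an exact two-sided permutation test, so the shares were not tested.

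Cells that had Slamf1 RNA had much of it. Of the 88 cells, 79 were at 10 RPKM or more, and 9 lay between 1 and 10 RPKM. The median among cells at 1 RPKM or more was 175 and 65.8 RPKM for the MUL mice, 119 and 180 RPKM for the PEM mice, and 341 and 170 RPKM for the PLT mice. These medians overlapped between all 3 groups. The highest cell, in PLT mouse 1, reached 1055 RPKM, and the highest of each other mouse lay between 227 and 622 RPKM. The groups were thus apart in the number of such cells and not in these medians.

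A further 131 cells had a trace of Slamf1, a value above 0 and under 1 RPKM. Traces were rare in the MUL mice (10.3% and 5.88% of cells), and frequent in the PEM mice (37.6% and 24%) and the PLT mice (47.3% and 39.3%). Together with the traces, 20.5% and 10.6% of cells of the MUL mice were above 0, against 75.3% and 48% of those of the PEM mice and 68.8% and 57.1% of those of the PLT mice. On this count the PLT and PEM mice overlapped, and both lay above the MUL mice. At the median depth, 1 RPKM of Slamf1 corresponds to 11.2 times the lowest depth-scaled value seen for the gene. In a cell of that depth a trace is therefore worth fewer than 11.2 of these smallest steps, and in a deeper cell it can be worth more. Traces are set apart from expression here by the cut of 1 RPKM alone.

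**Figure D2:**
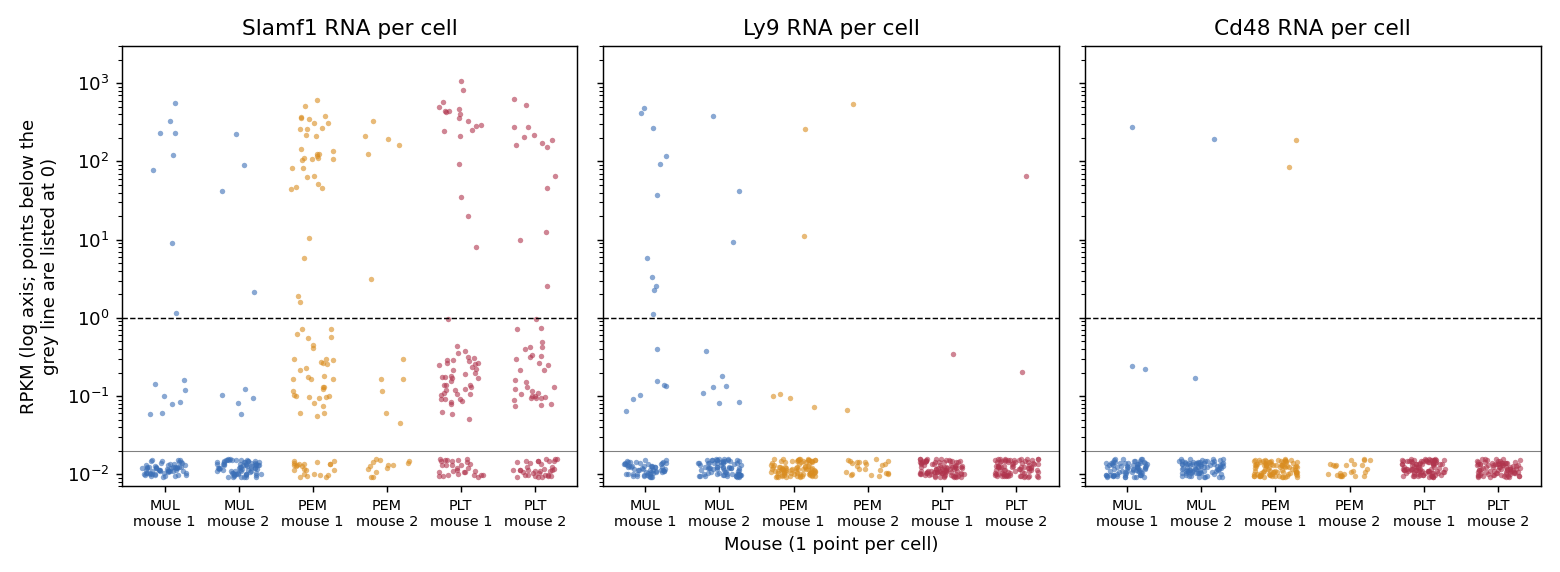
RPKM per cell on a log axis for Slamf1, Ly9 and Cd48, 1 point per cell, by mouse, with points below the grey line listed at 0 and the dashed line at 1 RPKM. Slamf1 points above the dashed line run up to 561 RPKM in MUL, 618 RPKM in PEM and 1055 RPKM in PLT mice, with few in the MUL mice, while Ly9 points are mostly MUL cells and Cd48 has 4.

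Averaged over all cells of a mouse, Slamf1 stood at 19.97 and 4.25 RPKM in the MUL pair, 65.8 and 41.0 RPKM in the PEM pair and 78.3 and 35.05 RPKM in the PLT pair. Such a mean does not separate fewer cells with the RNA from less RNA per cell. Both PEM and both PLT mice were above both MUL mice, and PEM and PLT overlapped. An order of this kind was found for 14.8% of genes for PLT above MUL and for 17.5% of genes for PEM above MUL. On the log2(mean RPKM + 1) scale, PLT was higher than MUL by 2.35 ± 0.74 (SE; 95% interval 0.65 to 4.05; adjusted p = 0.495, limma with Benjamini-Hochberg adjustment over all tested genes). PEM was higher than MUL by 2.34 ± 0.74 (0.64 to 4.03; limma adjusted p = 0.868). PLT and PEM differed by 0.01 ± 0.74 (−1.68 to 1.71; limma adjusted p = 0.999), an interval wide enough for a difference of either sign.

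Slamf1 thus passed the threshold of 0.05 in no comparison. Of all 11337 genes, limma called 1 (0.00882%) in PLT against MUL, 0 (0%) in PEM against MUL and 0 (0%) in PLT against PEM, with unadjusted p under 0.05 for 8.41%, 5.59% and 8.37% of genes. The unadjusted p of Slamf1 was 0.0125 in PLT against MUL and 0.0129 in PEM against MUL. The difference rested in part on 1 MUL mouse: without MUL mouse 2 it was 1.35 in PLT against MUL and 1.34 in PEM against MUL, and without MUL mouse 1 it was 3.35 and 3.33.

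**Figure D3:**
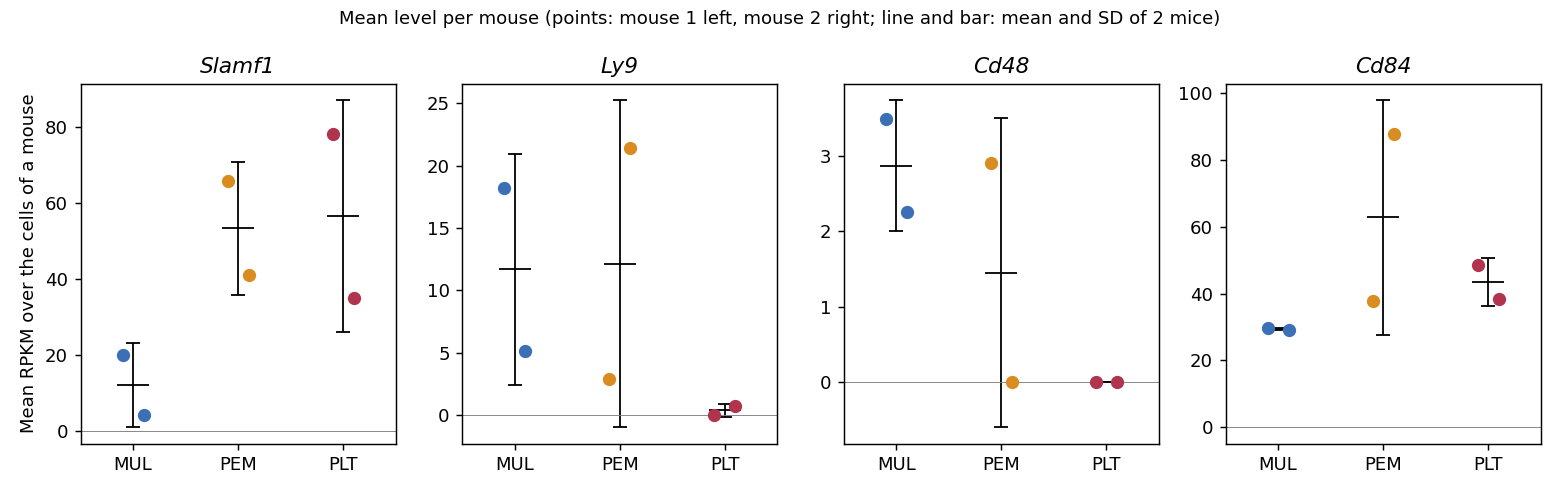
Mean RPKM over the cells of each mouse for Slamf1, Ly9, Cd48 and Cd84, each on its own y axis, with 1 point per mouse and a line and bar for the mean and SD of the 2 mice of a group. Slamf1 is lower in both MUL mice than in the other 4, Ly9 and Cd48 are at or near 0 in both PLT mice, and the bars of PEM are wide for Ly9 and Cd84.

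The detected genes per cell moved with the groups, since both PEM mice were above the other 4. Among cells with 1800 to 3000 detected genes, the Slamf1 share was 13.2% and 3.23% for the MUL mice, 30.6% and 27.3% for the PEM mice, and 34.5% and 19.6% for the PLT mice. In this range both PEM and both PLT mice stayed above both MUL mice, and PEM and PLT overlapped. The range kept 53 and 62 cells of the MUL mice, 36 and 11 of the PEM mice, and 55 and 56 of the PLT mice. The share of PEM mouse 2 thus rests on 11 cells. Within mice, Slamf1 had a Spearman correlation of −0.20 to 0.35 with detected genes and of −0.12 to 0.10 with mapped reads over cells, given as a description. Between the plates of a mouse the Slamf1 share differed too: 14.0% and 5.71% in MUL mouse 1, 4.44% and 5% in MUL mouse 2, 45.7% and 29.8% in PEM mouse 1, 28.6% and 18.2% in PEM mouse 2, 23.4% and 19.6% in PLT mouse 1, and 23.3% and 12.2% in PLT mouse 2. Plates of PLT mouse 2 and MUL mouse 1 thus crossed, so the separation of the PLT from the MUL mice did not hold for every plate. The second plate of PEM mouse 2 lay below both plates of PLT mouse 1, so neither did that of the PEM from the PLT mice.

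Cd48 encodes the membrane-anchored ligand whose absence the gate requires. Its 4 cells were 1 of MUL mouse 1 at 272 RPKM, 1 of MUL mouse 2 at 192 RPKM, and 2 of PEM mouse 1 at 186 and 84.8 RPKM. No cell of PEM mouse 2 or of either PLT mouse was above 0. A count of 0 allows a share of up to 12% in PEM mouse 2, 3.23% in PLT mouse 1 and 3.57% in PLT mouse 2, so a share as low as that of the MUL mice (1.28% and 1.18%) was not distinguishable from theirs at these cell numbers.

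The cells with Cd48 RNA differed among themselves. Both in PEM mouse 1 also had Slamf1, at 83.1 and 47.6 RPKM, while both MUL cells had Slamf1 listed at 0. The cell of MUL mouse 2 held 55346 RPKM of S100a8, a granule gene of neutrophils, and met the neutrophil marker list. All 4 had at least 3 HSC markers above 0, as had 99.6% of all cells. Mean Cd48 was 3.49 and 2.26 RPKM in the MUL pair, 2.91 and 0 RPKM in the PEM pair and 0 RPKM in both PLT mice. Both PLT mice were below both MUL mice, as were 24.9% of genes by their mean and 22.1% by their share of cells. The fitted difference of PLT from MUL was −1.94 ± 0.82 on the log2(mean RPKM + 1) scale (SE; limma adjusted p = 0.590), that of PEM from MUL −0.95 ± 0.82 (adjusted p = 0.919) and that of PLT from PEM −0.98 ± 0.82 (adjusted p = 0.773). These values rest on 4 cells. PLT from MUL moved to −1.15 without cells with neutrophil or erythroid markers, −4.86 with a pseudocount of 0.1, −0.36 with one of 10 and −0.10 with the mean over cells of log2 values.

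**Figure D4:**
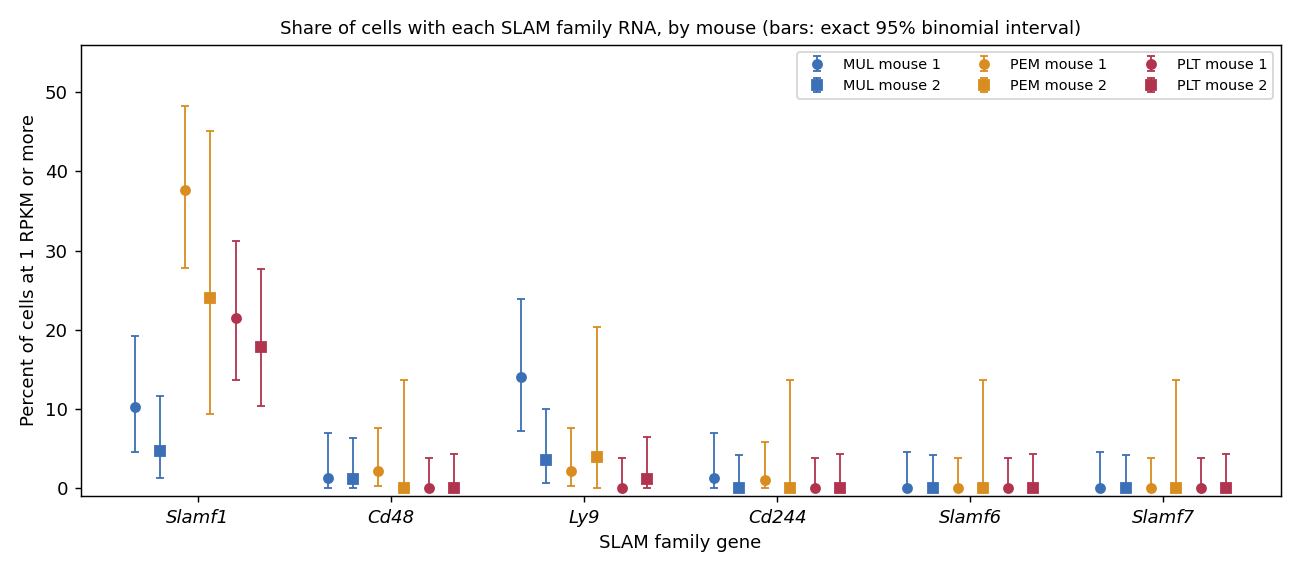
Percent of cells at 1 RPKM or more (y axis) for the 6 SLAM genes, 1 point per mouse, with bars for the exact 95% binomial interval. Slamf1 ranges from 4.71 to 37.6%, Ly9 reaches 14.1% in MUL mouse 1, and the remaining genes lie at or below 2.15% in every mouse.

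Ly9 encodes CD229, a self-binding receptor of the family. Of 18 cells at 1 RPKM or more (3.93% of all), 14 came from MUL mice, 11 of them from MUL mouse 1. In MUL mouse 1 these were 11 of 78 cells (14.1%, 7.26 to 23.8%) and in MUL mouse 2 they were 3 of 85 cells (3.53%, 0.734 to 9.97%). PEM mouse 1 had 2 of 93 cells (2.15%), PEM mouse 2 had 1 of 25 cells (4%), PLT mouse 1 had 0 of 93 cells, which allows up to 3.23%, and PLT mouse 2 had 1 of 84 cells (1.19%). The MUL and PEM mice overlapped, and both PLT mice lay below the other 4. The order of PLT below PEM rests on these few cells, and the intervals overlapped. They were 0.262 to 7.55% for PEM mouse 1, 0.101 to 20.4% for PEM mouse 2 and 0.0301 to 6.46% for PLT mouse 2.

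The level of Ly9 varied widely between cells. In MUL mouse 1 the 11 cells ran from 1.14 to 482 RPKM with a median of 36.7 RPKM. In MUL mouse 2 the 3 cells stood at 385, 41.8 and 9.46 RPKM. PEM mouse 1 had cells at 256 and 11.1 RPKM, PEM mouse 2 had 1 cell at 535 RPKM, and PLT mouse 2 had 1 cell at 65.5 RPKM. Single cells above 50 RPKM were thus found in every group. At 10 RPKM or more the shares were 7.69% and 2.35% for the MUL mice, 2.15% and 4% for the PEM mice, and 0% and 1.19% for the PLT mice.

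Mean Ly9 was 18.2 and 5.14 RPKM in the MUL pair, 2.88 and 21.4 RPKM in the PEM pair and 0.00367 and 0.782 RPKM in the PLT pair. The high mean of PEM mouse 2 came from its 1 cell, which held all but traces of the sum. Both PLT mice were below both MUL mice and both PEM mice. By mean level the same order was found for 24.9% of genes against MUL and 21.9% against PEM, and by share of cells for 22.1% and 34.2%. The difference of PLT from MUL was −3.02 ± 1.06 (SE; 95% interval −5.44 to −0.60; limma adjusted p = 0.521), that of PLT from PEM −2.80 ± 1.06 (−5.22 to −0.38; adjusted p = 0.564) and that of PEM from MUL −0.22 ± 1.06 (−2.64 to 2.20; adjusted p = 0.993). In PLT against PEM the value became −1.54 without PEM mouse 2 and 0.55 in cells with 1800 to 3000 detected genes. In PEM against MUL it became 0.60 without MUL mouse 1 and 1.04 without PEM mouse 1, but −1.49 without PEM mouse 2, −3.78 in cells with 1800 to 3000 detected genes and −2.60 without cells with neutrophil or erythroid markers. Without those cells PLT against PEM was −0.52.

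RNA of multipotent progenitors, the stage after HSCs, moved in the same direction as Ly9. The summed mean of 8 progenitor markers was 122 and 184 RPKM for the MUL mice, 46.0 and 85.2 RPKM for the PEM mice, and 10.4 and 19.6 RPKM for the PLT mice. At least 3 of the markers were above 0 in 2 and 12 cells of the MUL mice, 2 and 3 cells of the PEM mice and 0 cells of either PLT mouse. Mpo, Ctsg and Dntt were at 0 in all cells, and Flt3 in those of both PLT mice. Of the 18 Ly9 cells, 2 had at least 3 progenitor markers above 0. The part of such cells in the Ly9 result was not tested.

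Cd244 encodes the receptor for CD48, known from natural killer cells. It reached 1 RPKM in 2 cells, at 143 RPKM in MUL mouse 1 and at 43.0 RPKM in PEM mouse 1. The latter was the cell with Cd48 at 84.8 RPKM and Slamf1 at 47.6 RPKM, which also had 5251 detected genes. It was the only cell with 3 or more members at 1 RPKM. Cd244 and Ly9 were each listed at 0 in the cells that had the other at 1 RPKM or more. Traces of Cd244 were seen in 7 more cells, 4 of them in PLT mice. Slamf6, a self-binding receptor of lymphocytes, was above 0 in 1 cell, of MUL mouse 2, at 0.237 RPKM. Slamf7, a receptor of natural killer and plasma cells, was listed at 0 in every cell. For both, a count of 0 over all cells at 1 RPKM allows a share of up to 0.655%. These 3 genes did not reach a mean of 1 RPKM in 2 mice and were not tested, so 3 of the 6 members entered the test.

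The members seldom occurred together, but most of them were rare, and these counts were not tested. No member reached 1 RPKM in 353 cells, 1 member did in 99 cells, 2 members in 5 cells and 3 or more in 1 cell. Slamf1 and Ly9 shared 4 cells, which is 4.55% of the Slamf1 cells and 22.2% of the Ly9 cells. Of these, 3 were in MUL mouse 1, with Slamf1 at 119, 9.0 and 1.17 RPKM and Ly9 at 5.90, 3.36 and 482 RPKM. No cell had both at 10 RPKM or more, among 12 cells at that level of Ly9 and 79 at that level of Slamf1, numbers too small to read anything from the 0.

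Markers of mature cells were examined in the 23 cells that had Cd48, Ly9 or Cd244 at 1 RPKM or more, since lymphocytes and other mature blood cells carry these receptors. As counted by values above 0, all 23 had at least 3 HSC markers. None had 3 markers of T and NK cells, of B cells or of mast cells and basophils, 3 met the neutrophil list and 1 the erythroid list. The macrophage and monocyte list was met by 10 of the 23, as it was by 213 of all cells (46.5%). Over all cells the T and NK cell genes Cd3e, Cd3g, Cd4, Klrd1, Ncr1, Gzma, Gzmb and Prf1 and the B cell genes Pax5 and Igll1 were at 0. The summed mean of the T and NK cell list was 66.8 to 228 RPKM over the mice. At least 3 markers of that list were above 0 in 30 cells (6.55%), 15 of them in PEM mouse 1, and 3 cells, all of PEM mouse 2, had 3 or more B cell markers.

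Of the 3 remaining family genes, Cd84 was the most widely seen. It encodes a self-binding receptor known from platelets and myeloid cells. Cd84 reached 1 RPKM in 172 of all cells (37.6%) and was above 0 in 390, more often than Slamf1 in every mouse. Its share was 34.6% and 30.6% for the MUL mice, 50.5% and 48% for the PEM mice, and 25.8% and 42.9% for the PLT mice. Both PEM mice were above the other 4, as with Slamf1, but the PLT mice lay on either side of the MUL mice. Such an order by share was found for 36.7% of genes for PEM above MUL and 34.2% for PLT below PEM. Mean Cd84 was 29.6 and 29.1 RPKM in MUL, 37.9 and 87.7 RPKM in PEM and 48.6 and 38.5 RPKM in PLT mice. The difference from MUL was 0.54 ± 0.51 for PLT (SE; limma adjusted p = 0.818) and 0.95 ± 0.51 for PEM (adjusted p = 0.881). PLT from PEM gave −0.41 ± 0.51 (adjusted p = 0.844), and 0.19 without PEM mouse 2.

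Cd84 and Slamf1 shared 36 cells, 40.9% of the Slamf1 cells and 20.9% of the Cd84 cells. In 5 of the mice 37.5 to 66.7% of Slamf1 cells also had Cd84. PLT mouse 1 differed, with 1 of its 20 Slamf1 cells. Slamf8, a family gene of macrophages, was at 1 RPKM or more in 83 cells (18.1%), close to the share of Slamf1, but at a median of 2.93 RPKM among them against 179 RPKM for Slamf1. Its mean was 1.36 and 15.1 RPKM in the MUL, 24.3 and 0.534 RPKM in the PEM and 12.2 and 7.80 RPKM in the PLT mice, with overlap between all groups (limma adjusted p of 0.911 for PLT against MUL, 1 for PEM against MUL and 0.900 for PLT against PEM). The Slamf8 share was 19.2% and 20% for the MUL, 21.5% and 16% for the PEM and 15.1% and 15.5% for the PLT mice. By share both PLT mice were thus below the other 4, an order found for 22.1% of genes against MUL and 34.2% against PEM. Slamf9 was listed at 0 in all cells.

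Downstream of the receptors, RNA of the adaptors that give the family its main signal was not detected. Sh2d1a, which encodes SAP, and its relatives Sh2d1b1 and Sh2d1b2 were listed at 0 in every cell, which does not show that the cells lacked it. Cd2, another receptor for CD48, reached 1 RPKM in 1 cell, of PEM mouse 2. RNA of other genes of SLAM signalling was present. Ptpn6, the phosphatase SHP-1, reached 1 RPKM in 48.5% of cells (28.0 to 79.6% over the mice). Inpp5d, the lipid phosphatase SHIP-1, did so in 16.2%, and the kinase gene Fyn in 9.39%. Vav1, which activates small GTPases, was at that level in 31.0% of cells, and Becn1, an autophagy gene whose protein is known to bind CD150 in macrophages, in 34.5%.

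Of 24 genes in this signalling list 20 were tested, and limma called 0 in each comparison, with unadjusted p under 0.05 for 4 in PLT against MUL, 3 in PEM against MUL and 5 in PLT against PEM, where 8.41%, 5.59% and 8.37% of all tested genes had such a p. In PLT against MUL 8 differences were positive and 12 negative, with a median of −0.49 on the log2 scale against −0.18 over all genes. In PEM against MUL the counts were 6 and 14 and the medians −0.54 and −0.04, and in PLT against PEM they were 8 and 12 and −0.55 and −0.13. The groups share mice between comparisons, so these counts are not independent.

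The 3 signalling genes of smallest p in each comparison included adaptors of several kinds. Lat, a scaffold of T cell receptor and platelet signalling, had means of 68.2 and 77.2 RPKM in the MUL, 45.1 and 42.2 RPKM in the PEM and 5.93 and 14.5 RPKM in the PLT mice. Both PLT mice were lower than the other 4 (PLT from MUL −2.82 ± 0.53, SE, limma adjusted p = 0.342; PLT from PEM −2.10 ± 0.53, adjusted p = 0.539). Vav1 had the same order, at 47.7 and 48.7 RPKM in the MUL, 55.7 and 50.3 RPKM in the PEM and 13 and 7.18 RPKM in the PLT mice (PLT from MUL −2.20 ± 0.49, limma adjusted p = 0.461; PLT from PEM −2.33 ± 0.49, adjusted p = 0.539). Dok2, an adaptor that restrains kinase signalling, was instead high in PEM. It stood at 74.5 and 97.3 RPKM there against 22.3 and 11.2 RPKM in the MUL and 18.3 and 10.01 RPKM in the PLT mice (PEM from MUL 2.35 ± 0.56, limma adjusted p = 0.868; PLT from PEM −2.56 ± 0.56, adjusted p = 0.539).

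The others were lower in level. Dok1, a relative of Dok2, gave −2.98 ± 0.87 in PLT from MUL (limma adjusted p = 0.480), with 8.80 and 20.1 RPKM in the MUL and 1.98 and 0.107 RPKM in the PLT mice. Csk, the kinase that keeps Src-type kinases in check, gave 1.60 ± 0.63 in PEM from MUL (limma adjusted p = 0.868), with 9.74 and 8.97 RPKM in the MUL and 23.7 and 38.7 RPKM in the PEM mice. Inppl1, a relative of Inpp5d, gave −1.64 ± 0.62 in the same comparison (adjusted p = 0.868), with at most 2.35 RPKM in any mouse. Each of these 6 genes was without overlap in the comparisons given for it, which follows in part from their choice by smallest p. By mean level, 24.9% of all tested genes had both PLT below both MUL mice, 21.9% had both PLT below both PEM mice and 17.5% had both PEM above both MUL mice. The share with both PEM below both MUL mice, the order of Inppl1, was not computed, so nothing is read from that order. None of the list passed the threshold.

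The genes most like Slamf1 over the cells of a mouse were sought among 4070 genes seen in at least 20% of cells. They were ranked by the mean Spearman correlation within the 5 mice of at least 50 cells. Only the 132 genes with a positive correlation in each of these mice were ranked. Ifi204 came first at 0.17, followed by Wdfy3 and Cited2 at 0.17, Ppp2r2a at 0.16 and Mnda at 0.15. Cells of a mouse share library plates and depth, and correlations this weak in sparse values are no finding. For the other 5 members the search asked for 1 RPKM or more in at least 10% of the cells of each such mouse, which none met. Slamf1 was searched without this rule and would not have met it, with 4.71% in MUL mouse 2.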

How the data were processed

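Values were RPKM per gene and cell as deposited by the authors. TopHat, featureCounts and the mm10 build are named per the submitters' processing notes. Versions, gene lengths and the strand setting are not given in the sources used here. Per the file headers, a second deposited table gives each cell's count of mapped reads, count of detected genes, mouse, sex and status. Status and mouse matched the labels for every cell. Sex was given as male for both MUL mice, PEM mouse 1 and PLT mouse 1, and as female for PEM mouse 2 and PLT mouse 2. Whether this is the sex of the donor or of the recipient is not said. Sex was not used in any comparison, and its part in the differences was not tested. No cell filter or doublet caller was applied, and no 2 cells held identical values. Index-sort protein values were not analysed here.

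The mouse is the replicate, so the mean RPKM of its cells was taken. limma 3.58.1 (R 4.3.3, eBayes with trend) fitted log2(mean RPKM + 1) of all 6 mice, for genes that averaged 1 RPKM or more in 2 or more mice (11337 genes), with Benjamini-Hochberg adjustment and a threshold of 0.05. A fold change on this scale understates the change of low genes. The p-values rest on 2 mice per group. Percent of cells at 1 RPKM or more has exact intervals computed from the deposited values.

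Named genes were all 6 members, Cd84, Slamf8, Slamf9, the gate genes, the 3 signalling genes of smallest p per comparison and the 5 genes most like Slamf1. Members and lists were chosen with earlier results of these data known. Promoters came from RefSeq, which had entries for 5 of the 6 members.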

Additional observations from a re-analysis of the deposited data

How the results depend on the processing

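No SLAM gene was called under any of the 16 alternatives, while the number of all genes called ranged from 0 to 19 in PLT against MUL, 0 to 9 in PEM against MUL and 0 to 4 in PLT against PEM; the highest count in each came without a filter on low values. Slamf1 kept its direction against MUL in all alternatives, at 1.10 to 3.35 for PLT and 1.34 to 3.33 for PEM. Slamf1 in PLT against PEM changed sign: −0.57 with the mean over cells of log2 values, −0.33 without cells with neutrophil or erythroid markers, and −0.56 to 0.58 when 1 mouse was left out. Counted above 0, the Slamf1 share differed by 47.4 percentage points for PLT from MUL, 46.1 for PEM from MUL and 1.35 for PLT from PEM, against −11.1 at 1 RPKM; in cells with 1800 to 3000 detected genes PLT exceeded MUL by 18.9 points against 12.2. Leaving out 1 mouse gave −1.49 to 1.04 for Ly9 in PEM against MUL, −1.94 to 0.031 for Cd48 in PEM against MUL, −1.002 to 0.19 for Cd84 in PLT against PEM, and for Slamf8 −0.58 to 2.19, −2.01 to 2.03 and −1.23 to 2.81 in PLT against MUL, PEM against MUL and PLT against PEM. Ly9 in PLT against PEM was 0.55 in cells with 1800 to 3000 detected genes. Slamf8 was −0.12 in PLT against MUL and −0.18 in PLT against PEM with the mean of log2 values, and in PEM against MUL −0.26 with a pseudocount of 0.1 and −0.16 without cells with neutrophil or erythroid markers. The cause of these changes was not tested. Cd48 was not tested with a filter of 5 RPKM or in cells with 1800 to 3000 detected genes. It also has no value for PLT against PEM without PEM mouse 1, where both groups are at 0. No paired analysis was possible because mice were numbered in accession order, which pairs no mice. Cell number limits shares in PEM mouse 2, which has 25 cells.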
